A study of Homo sapiens with 20 samples.

Results

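The proteins of the cytosolic ribosome are encoded by the RPL genes of the large subunit and the RPS genes of the small subunit, which were followed here as mRNAs across 12 RNAseq libraries. Members were taken by symbol: RPL or RPS with a number and an optional ending A, X, L or L1, together with RPLP0, RPLP1, RPLP2 and RPSA, leaving out the RPS6 kinases, pseudogenes and hyphenated names. Of 84 matching symbols among 28051 named genes, 81 had a mean scaled count of at least 50 and form the set. The 3 left out, RPL10L, RPL3L and RPL39L, had means of 2.0, 2.33 and 4.08, and the lowest mean inside the limit was 461.5, for RPL36A. All 81 also passed the filter on low values for the test, which 13256 genes passed. As background, RPL36AL and FAU, which also encode a protein of the ribosome or a precursor of one, do not meet the symbol rule and are not members.

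HL60 is a human acute myeloid leukemia cell line that matures toward neutrophil-like cells when given all-trans retinoic acid (ATRA). Cells transduced with the lentiCRISPRv2 vector, which carries Cas9 and a puromycin marker, served as Cas9 control, and the cells labelled HK3-null were made with a guide against hexokinase 3 (HK3) and grown from limiting dilution. Each genotype received 1 µM ATRA or 0.01% DMSO, the solvent of ATRA, for 36 h, giving 4 groups of 3 RNAseq libraries and 2 ATACseq libraries. Since the labels give a single line name to every HK3-null library, the genotype and that line, with whatever else it carries, cannot be told apart. The study's methods call the replicates biological without saying that they were separate clones, so that p-values measure the spread between these libraries of each line.

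The values are treated here as log2 of scaled counts. The methods describe RPKM instead, which are divided by gene length, but undoing the log2 gave whole numbers (within 0.05) for all of the 121463 values above 0 that were below 1000. Were they per length already, the per-kilobase levels and paralog percentages below would not hold. The libraries held 29056349 to 31549781 scaled counts each. Between 15031 and 15801 genes were above 0 in 11 libraries, and 16750 in Cas9 control in DMSO replicate 1. The 8 myeloid markers checked (among them MPO, ELANE and CD33) were at 50 or more in every library, and 7 of the 8 markers of other blood lineages were below 50 in every library, the exception being NKG7 at 206 to 1214. HK3 was not lower in the cells labelled HK3-null: it stood at 90, 65 and 105 in Cas9 control and 344, 302 and 346 in HK3-null with DMSO, and at 1305, 1298 and 1850 against 1384, 1285 and 1975 with ATRA. An mRNA count does not show whether a frameshift is present. The study reports that Sanger sequencing of its knockout lines found insertions or deletions at the cut site. By mass spectrometry of pooled clones it detected HK3 protein in vitamin D-treated HL60 control cells but not in the HK3 knockout.

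Each ribosome holds a single copy of nearly every ribosomal protein, and the proteins are made in matching amounts. Their mRNAs are among the most abundant of growing cells, and most of them begin with a C followed by a run of pyrimidines, the 5′ terminal oligopyrimidine (TOP) motif, through which the mTOR kinase and LARP1 control their translation. Proteins such as RPL5 and RPL11 also bind MDM2 when ribosome assembly fails, and loss of a single copy of several of these genes causes Diamond-Blackfan anemia, while loss of RPS14 belongs to the 5q- syndrome.

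To show the start of the mRNAs whose values the results turn on, 15 bases on each side of a RefSeq start (GRCh38.p14) are given 5′ to 3′ for 15 members, with the unbroken run of C and T that covers the start in capitals. Sequences without capitals do not have C or T at the listed start. The windows of the members on chromosomes 15 and 13 are
RPL4: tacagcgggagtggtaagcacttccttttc
RPLP1: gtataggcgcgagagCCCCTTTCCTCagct
RPS27L: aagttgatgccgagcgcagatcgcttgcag
RPL21: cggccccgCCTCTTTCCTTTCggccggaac
The windows of those on chromosomes 5 and 6 are
RPS23: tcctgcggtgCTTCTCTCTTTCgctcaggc
RPS14: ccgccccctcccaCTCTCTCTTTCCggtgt
RPL26L1: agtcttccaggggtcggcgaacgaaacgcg
RPS18: cgcgtcacttccgCTCTCTCTTCCacagga
RPS12: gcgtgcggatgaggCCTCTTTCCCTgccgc
RPL7L1: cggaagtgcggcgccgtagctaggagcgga
and those of members elsewhere that moved with ATRA or genotype are
RPL22L1: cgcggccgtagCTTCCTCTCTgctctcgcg
RPS26: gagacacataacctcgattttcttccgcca
RPL17: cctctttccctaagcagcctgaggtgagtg
RPS27: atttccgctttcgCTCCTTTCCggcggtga
RPS9: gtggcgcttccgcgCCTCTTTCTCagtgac

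The positions are chr15:66504841-66504870 (minus strand) for RPL4, chr15:69452803-69452832 (plus) for RPLP1, chr15:63157463-63157492 (minus) for RPS27L, chr13:27251543-27251572 (plus) for RPL21, chr5:82278340-82278369 (minus) for RPS23, chr5:150449725-150449754 (minus) for RPS14, chr5:172958714-172958743 (plus) for RPL26L1, chr6:33272060-33272089 (plus) for RPS18, chr6:132814554-132814583 (plus) for RPS12 and chr6:42879601-42879630 (plus) for RPL7L1. RPL26L1 has 2 listed starts, of which 1 is shown. The others lie at chr3:170870181-170870210 (minus) for RPL22L1, chr12:56041903-56041932 (plus) for RPS26, chr18:49492451-49492480 (minus) for RPL17, chr1:153990747-153990776 (plus) for RPS27 and chr19:54200843-54200872 (plus) for RPS9. Each window spans the last bases of the promoter and the first of exon 1.

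Of 66 members with a promoter entry in the RefSeq table, 47 (71.2%) had a C at a listed start followed by at least 4 C or T, against 5.14% of the 27305 genes of the table and 7.06% of the 9641 tested genes that are no members. RPL4, RPS27L, RPL26L1, RPL7L1, RPS26 and RPL17 were among the 19 members without it. However, a C and T run lies just upstream of the listed start of RPL17 and just downstream of those of RPL4 and RPS26. The letters CCGGAAG, the core bound by ETS factors, were found on either strand within 250 bases before to 50 after the start of 24 of the 66 members (36.4%), against 12.2% of all genes of the table and 22.9% of the other tested genes. AAGATGGC, the core of the YY1 site, was present in 7 (10.6%, against 3.52% and 6.79%), GGGCGG, the GC box, in 38 (57.6%, against 48.3% and 75.3%), and TATAAA, the TATA box, in 6 (9.09%, against 14.0% and 8.25%). These matches are letters in a window and were not tested as binding sites, and the listed start need not be the start used in HL60.

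The 81 genes together held a share of all scaled counts of 10.43%, 10.48% and 10.04% in the Cas9 control libraries with DMSO, and of 9.77%, 10.03% and 10.15% in HK3-null with DMSO. With ATRA it was 11.53%, 11.73% and 11.46% in Cas9 control and 10.38%, 10.96% and 9.80% in HK3-null. The 3 Cas9 control libraries with ATRA lay above all 9 others, while the HK3-null libraries with ATRA overlapped with those in DMSO. The lowest HK3-null library with ATRA, replicate 3, was also the lowest of its group for 79 of the 81 single members, as was replicate 3 of Cas9 control with ATRA. In DMSO, replicate 3 was the lowest for 75 members in Cas9 control and for 25 in HK3-null. The 79 mitochondrial ribosomal protein genes, which serve the separate ribosome of the mitochondrion, held 0.690% to 0.713% in Cas9 control with DMSO, 0.559% to 0.567% in HK3-null with DMSO, 0.568% to 0.601% in Cas9 control with ATRA and 0.413% to 0.427% in HK3-null with ATRA. A share of a library cannot tell more ribosomal protein mRNA from less of other mRNAs, and in bulk samples fewer cells of a type and less RNA per cell cannot be told apart.

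**Figure D1:**
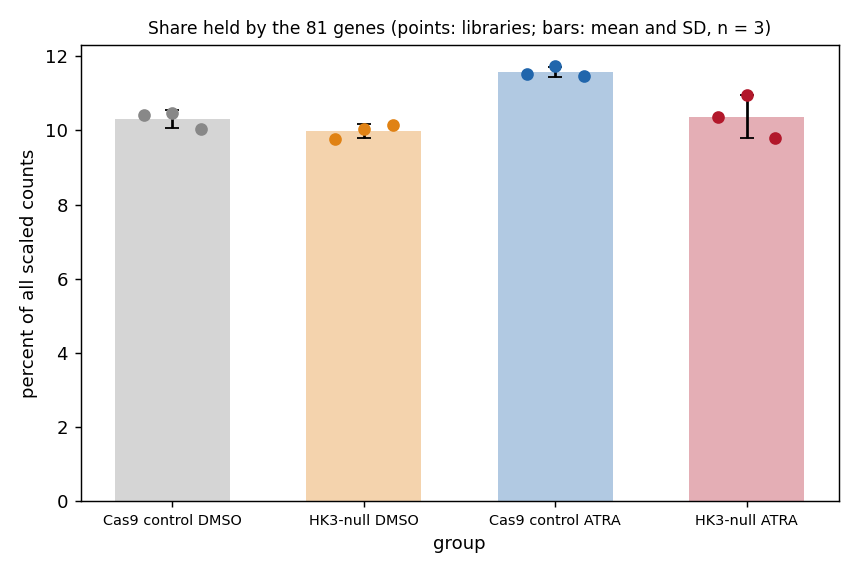
Percent of all scaled counts held by the 81 ribosomal protein genes in each library (points), with the group mean and SD (bars and error bars, n = 3). The Cas9 control libraries with ATRA, at 11.46% to 11.73%, sit above the libraries of the other 3 groups, which reach from 9.77% to 10.96%.

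Mean scaled counts ranged from 461.5 for RPL36A to 121952 for RPS18. Per kilobase of the GENCODE canonical transcript, the mean level over the 12 libraries was highest for RPS18 (222135 scaled counts per kb), followed by RPS12 (131841), with a median of 38179 over the 81. The lowest were RPS27L (137), RPL22L1 (516) and RPL36A (606). The RPS27L value rests on a canonical transcript of 6110 bases, which is far longer than its coding part of 252 bases. Ribosomal protein genes have many processed pseudogenes of near-identical sequence, how reads shared with them were assigned is not given in the sources used here, and RPL36A, RPL17 and RPS10 overlap read-through genes, so that their levels are uncertain.

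The first comparison asked which ribosomal protein mRNAs differed between HK3-null and Cas9 control cells in the solvent. In the limma test over all 13256 genes, 36 of 81 members passed an adjusted p of 0.05, 10 higher and 26 lower in HK3-null, where 55.0% of all genes passed (27.9% higher and 27.1% lower). The median log2 fold change of the members was -0.07 and that of all genes 0.00. After quantile normalization 52 members passed, 29 higher and 23 lower, with a median of 0.03, so that the balance of small differences depended on the scaling. With a fold of at least 1.5 in addition, 15 members passed, against 32.1% of all genes, and with a fold of 2, 6 members, against 19.3%. The libraries of the groups did not overlap for 51 of 81 members and for 63.8% of all genes.

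The members with the largest genotype differences lay mostly on a few chromosomes. On chromosomes 5, 6, 8, 13 and 15, which were singled out because earlier results of these data were known, 17 of 18 members passed, 8 higher and 9 lower, where 76.5% of the tested genes of these chromosomes passed (36.5% higher and 40.0% lower). The same 8 higher and 9 lower counts were found after rescaling on genes elsewhere, and quantile normalization gave 9 and 9. All 4 members on chromosome 8 and all 5 on chromosome 6 had higher means in HK3-null, and all 4 on chromosome 5, all 4 on chromosome 15 and the single member on chromosome 13 had lower means. On the other chromosomes 19 of 63 members passed, 2 higher and 17 lower, where 50.6% of the tested genes passed (26.2% higher and 24.4% lower). That split turned to 20 higher and 14 lower after quantile normalization. The number of copies of each chromosome was not measured in these data.

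**Figure D2:**
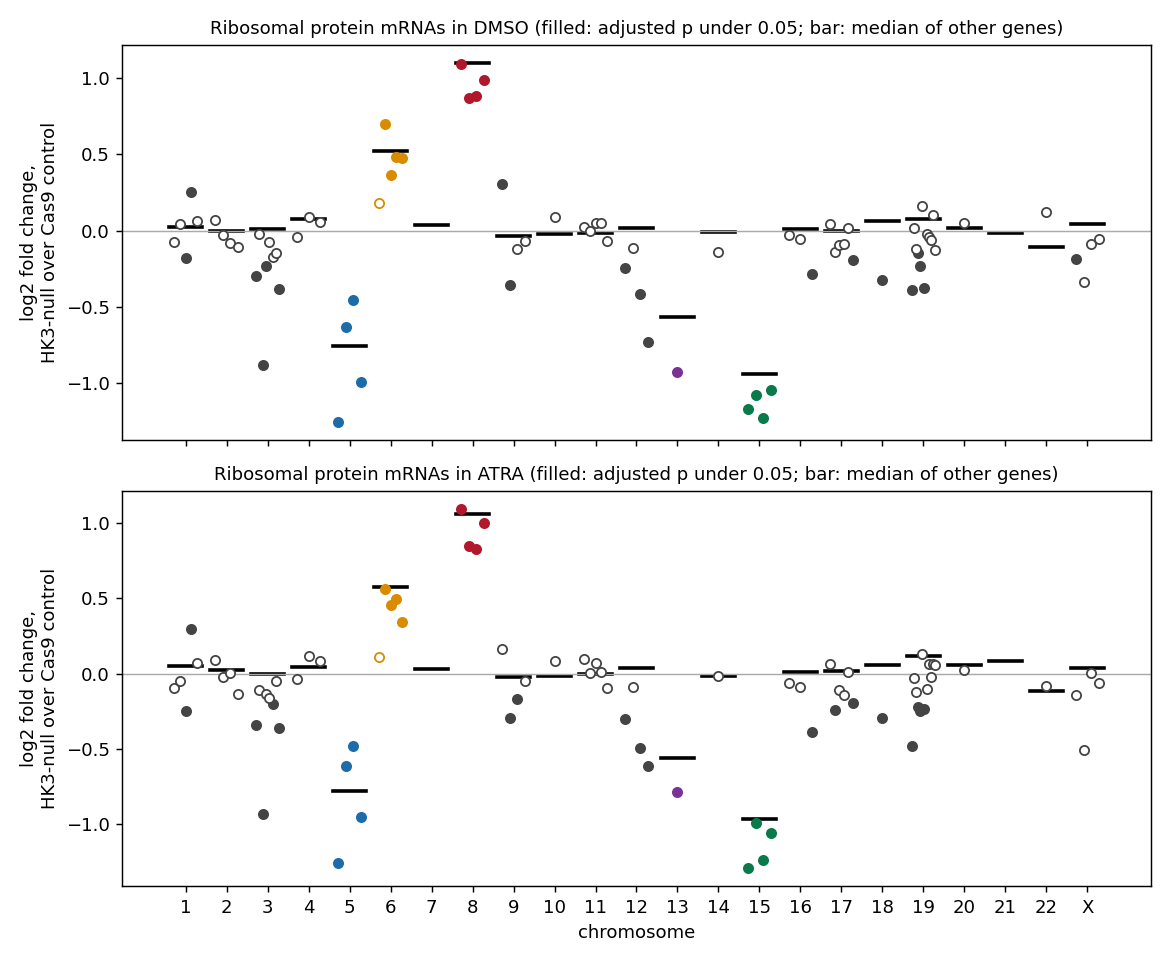
Log2 fold change of each of the 81 mRNAs, HK3-null over Cas9 control, by chromosome in DMSO (top) and ATRA (bottom); filled points passed an adjusted p of 0.05 and black bars are the median of the other tested genes of the chromosome. Members on chromosomes 8 and 6 lie above 0 and those on 5, 13 and 15 below it in both panels. Some lie near the bars of their chromosomes, and others, such as RPL10A and RPL26L1, lie farther from them.

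The members described on chromosome 15 fell by similar amounts. RPL4, a large subunit protein that lines the exit tunnel, had 124467, 128019 and 117638 scaled counts in Cas9 control and 54331, 56123 and 53829 in HK3-null. The groups were far apart in every library, and the log2 fold change was -1.17 ± 0.0672 (SE, adjusted p = 7.8e-08). RPLP1, a stalk protein that helps recruit elongation factors, stood at 59914, 58884 and 58925 against 27696, 28693 and 27673 (-1.08 ± 0.0559, adjusted p = 3.6e-08). RPS27L, a p53-inducible paralog of RPS27, stood at 1153, 1230 and 1095 against 574, 549 and 560 (-1.05 ± 0.0961, adjusted p = 3.4e-06). No library of a group overlapped with the other group in these 3, and the median over the 427 other tested genes of the chromosome was -0.94.

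On chromosome 5 the 4 members fell by different amounts. RPL26L1, a paralog of RPL26, had 1606, 1599 and 1471 scaled counts in Cas9 control and 640, 641 and 679 in HK3-null (-1.25 ± 0.0655, adjusted p = 3.9e-08). RPS23, which sits at the decoding centre, stood at 51787, 54850 and 48980 against 25691, 26180 and 26438 (-0.99 ± 0.0714, adjusted p = 5.0e-07). For RPL37 the log2 fold change was -0.63 ± 0.0748 (adjusted p = 2.6e-05). RPS14, the gene of the 5q- syndrome, stood at 82964, 86451 and 81167 against 59290, 62649 and 60565 (-0.46 ± 0.0786, adjusted p = 0.00045), the smallest fall of the 4. The median over the 569 other tested genes of chromosome 5 was -0.75. RPL21 on chromosome 13 stood at 21371, 21574 and 17829 against 10573, 10136 and 11208 (-0.92 ± 0.0989, adjusted p = 1.2e-05), with a chromosome median of -0.57.

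The 4 members on chromosome 8 rose by similar amounts. RPL30, which contacts the small subunit across the subunit interface, had 20765, 20202 and 19185 scaled counts in Cas9 control and 41869, 43529 and 42551 in HK3-null (1.09 ± 0.0615, adjusted p = 6.8e-08). RPS20 stood at 19438, 18867 and 16947 against 35992, 36025 and 37094 (0.98 ± 0.0638, adjusted p = 2.1e-07). RPL8 and RPL7 rose by 0.88 ± 0.0593 and 0.87 ± 0.0725 on the log2 scale, with adjusted p-values of 2.8e-07 and 1.6e-06. The counts of the groups were separate for all 4 genes, and the 423 other tested genes of the chromosome had a median of 1.10.

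On chromosome 6, RPL7L1, a paralog of RPL7 known for a role in ribosome assembly, had 7908, 7659 and 7558 scaled counts in Cas9 control and 12716, 12625 and 12212 in HK3-null (0.70 ± 0.0742, adjusted p = 1.1e-05). RPS12 stood at 55925, 55044 and 47624 against 72994, 74152 and 73309 (0.48 ± 0.0782, adjusted p = 0.00031), and RPS18 at 99555, 102013 and 95499 against 131636, 140032 and 141251 (0.47 ± 0.0750, adjusted p = 0.00024). RPS10 rose by 0.36 ± 0.0663 (adjusted p = 0.00069). RPL10A was the 1 member of the 5 chromosomes that did not pass, with 0.18 ± 0.0747 and an adjusted p of 0.061, although with the replicate number as a block its adjusted p was 0.0034. The 663 other tested genes of chromosome 6 had a median of 0.52, and the 20 tested genes nearest to RPL10A had a median of 0.74.

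The 18 members of the 5 chromosomes were set beside the 20 tested non-member genes nearest to each, a description chosen after the values were seen. The log2 fold change lay within 0.1 of the neighbours' median for 6 of 18 members and within 0.3 for 16, and the median distance was 0.16. RPS12 was among the nearest, with 0.48 beside a neighbours' median of 0.48, and RPL37 stood at -0.63 beside -0.63. RPL21 stood at -0.92 beside -0.63, RPS20 at 0.98 beside 1.23 and RPS14 at -0.46 beside -0.24. The farthest were RPL26L1, at -1.25 beside -0.65, and RPL10A, at 0.18 beside 0.74. When the median of each chromosome was subtracted in every library, RPL30 had a log2 fold change of -0.0029 and RPS12 of -0.06, while RPS14 turned to 0.27 and RPL7 to -0.22.

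**Figure D3:**
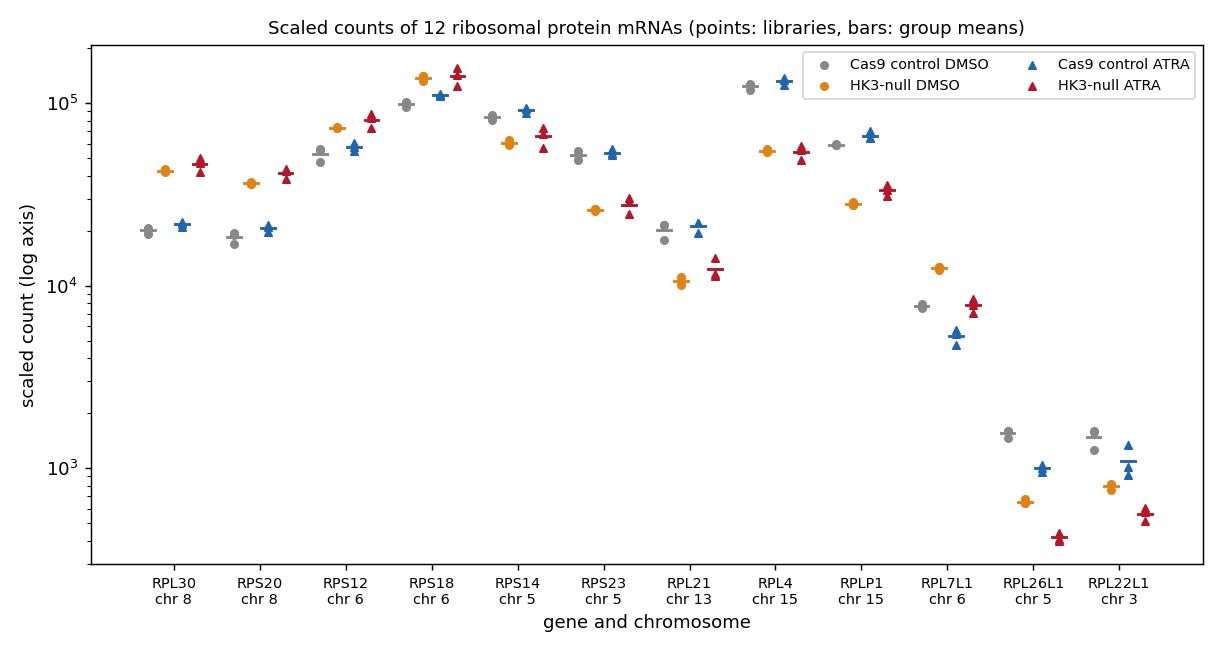
Scaled counts of 12 ribosomal protein mRNAs on a log axis, with each library as a point (circles DMSO, triangles ATRA) and the mean of each group of 3 as a bar. In both treatments the HK3-null libraries lie above the controls for RPL30, RPS20, RPS12, RPS18 and RPL7L1 and below them for the other 7 genes.

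Among members on the remaining chromosomes the differences were mostly smaller, and nearly all that passed were lower in HK3-null. RPL22L1 on chromosome 3, the paralog of RPL22, had 1594, 1581 and 1250 scaled counts in Cas9 control and 759, 809 and 819 in HK3-null (-0.88 ± 0.137, adjusted p = 0.00022). RPS26 on chromosome 12, which contacts the mRNA at the exit channel and is mutated in Diamond-Blackfan anemia, stood at 4129, 3914 and 3796 against 2333, 2406 and 2397 (-0.73 ± 0.0937, adjusted p = 5.0e-05). The medians of their 20 nearest genes were -0.04 and 0.05, so that these 2 members differed from their neighbours by more than RPL26L1 did.

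RPLP0, the base of the stalk, had 89630, 88709 and 85220 scaled counts against 65011, 67603 and 65151 (-0.41 ± 0.0631, adjusted p = 0.00019). RPL13A, known for a role outside the ribosome in interferon-induced silencing, stood at 121265, 121914 and 118014 against 90066, 92227 and 93443 (-0.39 ± 0.0611, adjusted p = 0.00023). RPSA, also described as the laminin receptor, stood at 39356, 39141 and 38957 against 29824, 30451 and 29922 (-0.38 ± 0.0581, adjusted p = 0.00019). RPS15, RPL35, RPL17, RPL14 and RPS2 fell by 0.38, 0.35, 0.32, 0.30 and 0.29 on the log2 scale, and their adjusted p-values reached from 0.00066 to 0.0045. Only RPL12 (0.31 ± 0.0648, adjusted p = 0.0018) and RPS27 (0.25 ± 0.0524, adjusted p = 0.0017) passed as higher outside the 5 chromosomes. RPS27 stood at 22248, 21911 and 20668 in Cas9 control and 25459, 26324 and 25369 in HK3-null.

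Asking the same question after 36 h of ATRA used the other 6 libraries. There 36 of 81 members passed, 9 higher and 27 lower in HK3-null, where 59.1% of all genes passed (29.6% higher and 29.5% lower), and the median was -0.09 against 0.01 for all genes. Quantile normalization gave 59 members, 13 higher and 46 lower. Adding a fold of 1.5, 14 members passed, against 36.5% of all genes, and with a fold of 2, 5, against 21.3%. The groups did not overlap for 36 members and for 63.4% of all genes. Of the 36 members that passed in each treatment, 33 passed in both, all with the same sign, and 39 passed in at least 1. On the 5 chromosomes 17 of 18 members again passed, 8 higher and 9 lower, where 77.3% of the tested genes did (36.1% higher and 41.2% lower), and the exception was RPL10A (0.11 ± 0.0747, adjusted p = 0.24). With the replicate number as a block its adjusted p was 0.042. On the other chromosomes 19 of 63 passed, 1 higher and 18 lower, where 55.6% of the tested genes did (28.5% higher and 27.1% lower). That split was 6 higher and 13 lower without HK3-null ATRA replicate 3, and 5 higher and 37 lower after quantile normalization.

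The largest differences had the same sign as in DMSO. RPL4 had 133243, 136704 and 125463 scaled counts in Cas9 control and 55136, 57889 and 48638 in HK3-null (-1.29 ± 0.0672, adjusted p = 3.4e-08). RPL30 stood at 22228, 21849 and 20927 against 47233, 49860 and 42067 (1.09 ± 0.0615, adjusted p = 6.2e-08). RPS14 stood at 92605, 94597 and 87981 against 68120, 72777 and 57029 (-0.48 ± 0.0786, adjusted p = 0.00027). The groups did not overlap for these 3 genes, and HK3-null replicate 3 was the lowest library of its group for each of them. RPLP0 and RPL13A fell by 0.50 ± 0.0631 and 0.48 ± 0.0611 (adjusted p = 3.8e-05 and 4.0e-05), and RPS27 rose by 0.30 ± 0.0524 (adjusted p = 0.00047). RPL12, which had passed as higher in DMSO, had 0.16 ± 0.0648 with an adjusted p of 0.051.

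By role, the members were as follows, with no test between roles. Among the stalk proteins RPLP1 and RPLP0 were lower in HK3-null in both treatments, while RPLP2, which pairs with RPLP1 on the ribosome, had 36754, 35428 and 35457 scaled counts in Cas9 control and 35645, 36032 and 35875 in HK3-null with DMSO (-0.00097 ± 0.0519, adjusted p = 0.99). Of the 5S particle, RPL5 fell by 0.18 ± 0.0671 in DMSO and 0.25 ± 0.0671 with ATRA (adjusted p = 0.042 and 0.0076), and RPL11 had -0.07 ± 0.0598 and -0.09 ± 0.0598 (adjusted p = 0.33 and 0.20). Of 32 small subunit members 13 passed in DMSO, 5 higher and 8 lower, and of 49 large subunit members 23 passed, 5 higher and 18 lower, beside 55.0% of all genes (27.9% higher and 27.1% lower). Of 19 members known as Diamond-Blackfan anemia genes 6 passed, 2 higher and 4 lower, and the median over the 19 was -0.06. RPS19, the gene most often mutated in that disease, had -0.04 ± 0.0642 (adjusted p = 0.58), and RPS6, the substrate of the S6 kinases, had -0.07 ± 0.0556 (adjusted p = 0.32).

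The next question was how ATRA changed these mRNAs in each genotype. In Cas9 control 18 of 81 members passed, 13 higher and 5 lower, where 41.6% of all genes passed (20.3% higher and 21.3% lower), and the median was 0.10 against 0.00 for all genes. With the replicate number as a block 29 passed, 24 higher and 5 lower, and with quantile normalization 51 passed, 46 higher and 5 lower. With a fold of 1.5 in addition 1 member passed, RPL26L1, against 19.0% of all genes, and with a fold of 2, 0, against 9.63%. The libraries of the treatments did not overlap for 35 members and for 51.3% of all genes. In HK3-null 19 members passed, 14 higher and 5 lower, where 49.0% of all genes passed (24.0% higher and 25.1% lower), with a median of 0.09. Adding a fold of 1.5, 2 passed, RPL26L1 and RPL7L1, against 26.6% of all genes, and with a fold of 2, 0, against 14.1%. The libraries did not overlap for 22 members and for 58.6% of all genes. The replicate block gave 30, 25 higher and 5 lower, but quantile normalization gave 32 with 12 higher and 20 lower and a median of -0.02, so that the direction of the small changes in HK3-null depended on the scaling. Without HK3-null ATRA replicate 3, the library with the smallest share of its group, 43 members passed, 39 higher and 4 lower. In Cas9 control the count was 8 without ATRA replicate 2, 10 without DMSO replicate 3 and 12 without ATRA replicate 1, and in HK3-null it was 10 without ATRA replicate 2, 10 without DMSO replicate 1 and 12 without DMSO replicate 2.

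The rises were small and reached across both subunits. RPS9 had 26242, 26018 and 26028 scaled counts in DMSO and 30949, 31283 and 30329 with ATRA in Cas9 control (0.24 ± 0.0542, adjusted p = 0.0041), and 23453, 24009 and 24148 against 32214, 34713 and 29483 in HK3-null (0.43 ± 0.0542, adjusted p = 5.6e-05). RPS27 rose by 0.27 ± 0.0524 and 0.32 ± 0.0524 (adjusted p = 0.0016 and 0.00039). For RPL13A the log2 fold changes were 0.28 ± 0.0611 and 0.19 ± 0.0611 (adjusted p = 0.0037 and 0.024), and for RPS19 0.20 ± 0.0642 and 0.31 ± 0.0642 (adjusted p = 0.027 and 0.0019). RPL3, which forms part of the peptidyl transferase region, rose in Cas9 control (0.25 ± 0.0667, adjusted p = 0.011) and had 0.05 ± 0.0667 in HK3-null (adjusted p = 0.61). RPL27A rose by 0.18 ± 0.0609 and 0.26 ± 0.0609 (adjusted p = 0.031 and 0.0042), and RPLP1 by 0.16 ± 0.0559 and 0.25 ± 0.0559 (adjusted p = 0.041 and 0.0033). RPL10A rose in Cas9 control (0.22 ± 0.0747, adjusted p = 0.037) and had 0.15 ± 0.0747 in HK3-null (adjusted p = 0.13). With the replicate number as a block its adjusted p in HK3-null was 0.0125, so that it passed in both genotypes. For RPS9, RPS27, RPL13A and RPS19 every ATRA library lay above every DMSO library in both genotypes.

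The same 5 members passed as lower in both genotypes, and 3 of them were paralogs. RPL26L1 had 1606, 1599 and 1471 scaled counts in DMSO and 1041, 999 and 953 with ATRA in Cas9 control (-0.64 ± 0.0655, adjusted p = 1.7e-05), and 640, 641 and 679 against 411, 439 and 400 in HK3-null (-0.65 ± 0.0655, adjusted p = 8.9e-06). RPL7L1 stood at 7908, 7659 and 7558 against 5720, 5398 and 4743 in Cas9 control (-0.55 ± 0.0742, adjusted p = 0.00014), and at 12716, 12625 and 12212 against 8410, 7869 and 7085 in HK3-null (-0.69 ± 0.0742, adjusted p = 1.5e-05). Neither gene has the TOP letters at its start in the sequences above, and no library overlapped between treatments.

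RPL22L1, which does have them, stood at 1594, 1581 and 1250 against 1338, 1009 and 920 in Cas9 control (-0.45 ± 0.137, adjusted p = 0.022), where the groups overlapped, and at 759, 809 and 819 against 573, 608 and 511 in HK3-null (-0.50 ± 0.137, adjusted p = 0.010). RPS26 fell by 0.37 ± 0.0937 and 0.25 ± 0.0937 (adjusted p = 0.0084 and 0.044), and RPL17 by 0.29 ± 0.0676 and 0.26 ± 0.0676 (adjusted p = 0.0055 and 0.0073). The fourth paralog, RPS27L, had -0.08 ± 0.0961 and -0.09 ± 0.0961 (adjusted p = 0.53 and 0.45). Over the 47 members with the TOP letters at a listed start the median ATRA change was 0.12 in Cas9 control and 0.10 in HK3-null, and over the 19 without them 0.09 and 0.06.

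**Figure D4:**
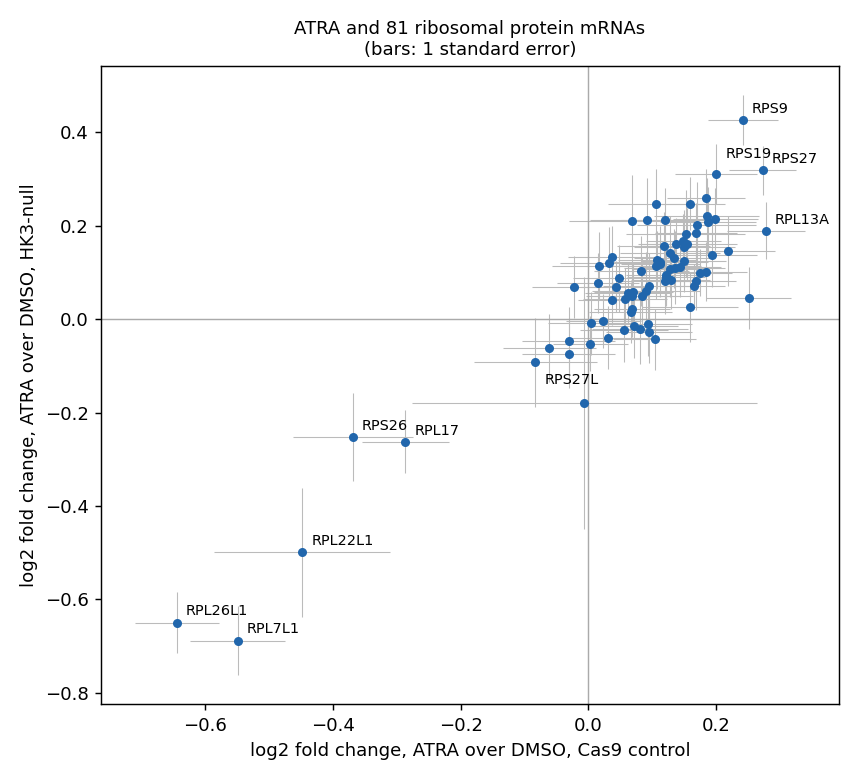
Log2 fold change of ATRA over DMSO for the 81 mRNAs in Cas9 control (x axis) and HK3-null (y axis), with bars of 1 standard error. RPL26L1, RPL7L1, RPL22L1, RPS26 and RPL17 lie below 0 on both axes, apart from the cloud of small positive values on the deposited scale, whose HK3-null median turned to -0.02 after quantile normalization.

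Per kilobase, each paralog was compared with the gene it is named after. RPL22L1 stood at 7.27% to 9.11% of RPL22 in Cas9 control with DMSO, 4.33% to 4.39% in HK3-null with DMSO, 4.74% to 6.81% in Cas9 control with ATRA and 2.83% to 3.05% in HK3-null with ATRA. RPL26L1 stood at 3.98% to 4.20% of RPL26, 1.76% to 1.89%, 2.44% to 2.54% and 1.09% to 1.20% in the same order, and the 4 groups did not overlap. RPL7L1 lay at 12.8% to 14.5% of RPL7 in Cas9 control and 11.6% to 12.6% in HK3-null with DMSO, a smaller gap, since both genes were higher in HK3-null, and at 8.53% to 9.23% and 6.75% to 7.89% with ATRA. RPS27L was at 0.30% to 0.32% of RPS27 in Cas9 control and 0.12% to 0.13% in HK3-null with DMSO, and at 0.22% to 0.26% and 0.091% to 0.10% with ATRA, on its long canonical transcript. The RPL7L1 percentages also depend on transcript length. Its canonical transcript has 4499 bases with a coding part of 765, beside 1233 and 744 for RPL7. Without division by length, the mean scaled count over the 12 libraries was 8325 for RPL7L1 and 22310 for RPL7.

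Whether the ATRA response differed between the genotypes was tested with the interaction term. By limma 0 of 81 members passed, and 1 had an unadjusted p under 0.05, where 9.12% of all genes passed (4.48% higher and 4.64% lower). Adding a fold of 1.5 or 2, 0 members passed, against 5.3% and 2.79% of all genes. The differences in response ran from -0.21 for RPL3 to 0.18 for RPS9, with a median SE of 0.0955 and a lowest adjusted p of 0.18. Quantile normalization gave 25 members, all with a lower ATRA response in HK3-null, scaling to the library total gave 3, also lower, and leaving out HK3-null ATRA replicate 3 gave 1 with a higher response. The number of members with a different response thus depended on the scaling.

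Genes that make or work with the ribosome were also followed under ATRA. The medians of the assembly, RNA polymerase I, mitochondrial ribosomal, initiation and growth control lists kept their sign after quantile normalization, scaling to the library total and the replicate block. Of 82 ribosome assembly factors, 74 fell and 1 rose in Cas9 control (median -0.60), and 76 fell and 1 rose in HK3-null (median -0.77). RRP9, a protein of the U3 snoRNP, fell by 1.33 ± 0.14 and 1.7 ± 0.14 on the log2 scale (adjusted p = 1.7e-05 and 1.4e-06), and LYAR, a nucleolar protein, by 1.34 ± 0.10 and 1.61 ± 0.10 (adjusted p = 1.6e-06 and 2.1e-07). The exception that rose in both was RIOK3, a kinase of the RIO family, with 0.30 ± 0.064 and 0.43 ± 0.064 (adjusted p = 0.0029 and 0.00019). Of 20 genes of RNA polymerase I and its factors 12 fell in Cas9 control and 13 in HK3-null, and none rose. POLR1B, the second largest subunit, fell by 0.92 ± 0.093 and 1.37 ± 0.093 (adjusted p = 1.7e-05 and 3.7e-07). These counts stand beside 21.3% and 25.1% of all genes that passed as lower.

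Of the 79 mitochondrial ribosomal protein genes, 55 fell and 1 rose with ATRA in Cas9 control (median -0.30), and 58 fell and 4 rose in HK3-null (median -0.35). Beside these and the next lists, 21.3% and 25.1% of all genes passed as lower and 20.3% and 24.0% as higher. MRPS26 fell by 0.83 ± 0.065 and 1.34 ± 0.065 (adjusted p = 2.0e-06 and 2.4e-08), while MRPS6 rose by 0.85 ± 0.084 and 1.09 ± 0.084 (adjusted p = 1.3e-05 and 1.0e-06). Of 33 initiation factors 21 fell and 2 rose in Cas9 control, and 24 fell and 1 rose in HK3-null. EIF2B3, a subunit of the exchange factor of eIF2, fell by 1.03 ± 0.11 and 1.44 ± 0.11 (adjusted p = 2.3e-05 and 9.0e-07). Of 17 elongation factors and other known TOP mRNAs, 4 passed in Cas9 control (23.5%) and 7 in HK3-null (41.2%), beside 41.6% and 49.0% of all genes. EIF3E, EIF3F, EIF3H and EIF4B stand in this list and in that of the initiation factors. In Cas9 control 2 of the 17 rose and 2 fell (median 0.07), and in HK3-null 1 rose and 6 fell (median -0.05). In Cas9 control 8 of them rose and 2 fell after quantile normalization. EEF1A1, the elongation factor that brings aminoacyl-tRNA, had 0.13 (adjusted p = 0.12) in Cas9 control, and VIM, the intermediate filament vimentin, fell by 3.76 ± 0.336 and 2.4 ± 0.336 on the log2 scale (adjusted p = 6.1e-06 and 0.00012). NPM1, the nucleolar phosphoprotein, fell by 0.65 ± 0.087 and 0.79 ± 0.087 (adjusted p = 0.00014 and 1.7e-05).

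Of 23 genes of translation and growth control, 10 fell and 3 rose in Cas9 control and 12 fell and 3 rose in HK3-null. Among all genes, 21.3% and 25.1% passed as lower and 20.3% and 24.0% as higher. MYC, a driver of ribosome synthesis, had 51419, 42067 and 50378 scaled counts in DMSO and 12073, 9654 and 12796 with ATRA in Cas9 control (-2.06 ± 0.14, adjusted p = 7.0e-07), and 54095, 45237 and 51576 against 7575, 5403 and 7202 in HK3-null (-2.91 ± 0.14, adjusted p = 2.7e-08). LARP1, which binds TOP mRNAs, fell by 0.47 in Cas9 control and 0.63 in HK3-null (adjusted p = 0.0035 and 0.00037).

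**Figure D5:**
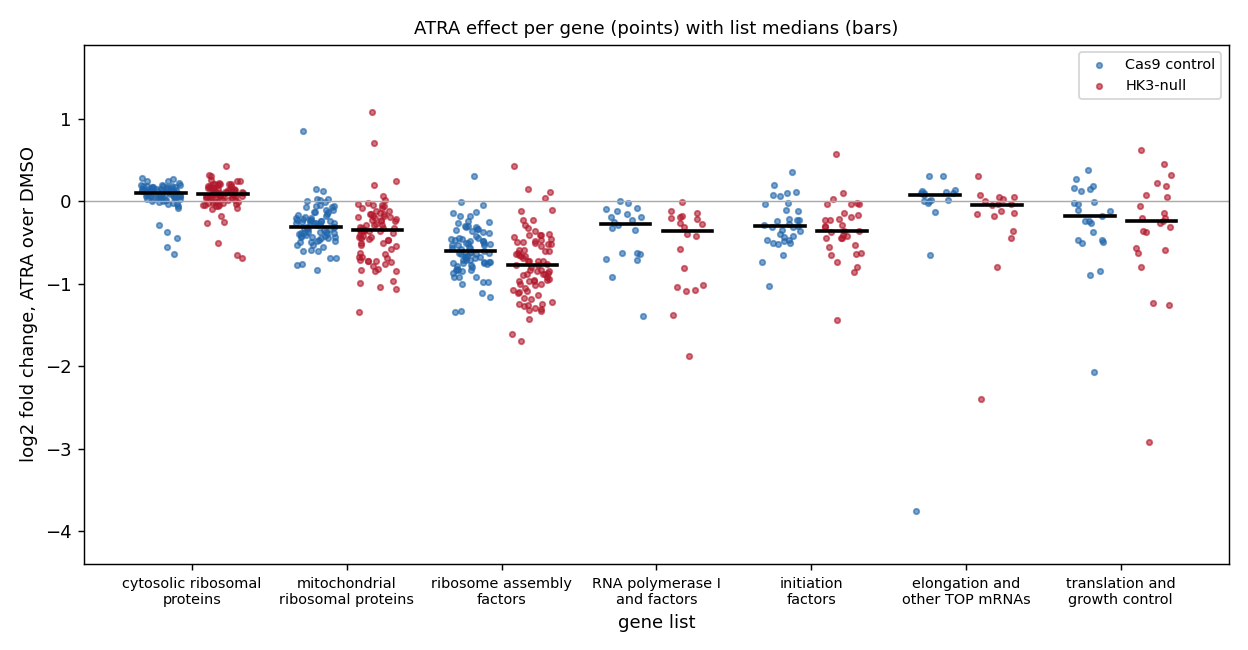
Log2 fold change of ATRA over DMSO for each gene of 7 lists (points, blue Cas9 control and red HK3-null), with black bars at the list medians. The cytosolic ribosomal proteins lie at medians of 0.10 and 0.09 (-0.02 in HK3-null after quantile normalization), and the assembly factors at -0.60 and -0.77.

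Between the genotypes the assembly factors and mitochondrial ribosomal proteins held more lower than higher genes. In DMSO 44 of 82 assembly factors were lower and 9 higher in HK3-null, and with ATRA 60 were lower and 6 higher, beside 27.1% and 29.5% of all genes that passed as lower. Of the mitochondrial ribosomal protein genes, 53 were lower and 8 higher in DMSO, and 61 lower and 12 higher with ATRA. The extremes of the mitochondrial list lay on chromosomes named above. MRPL46 on chromosome 15 fell by 1.69 ± 0.067 and MRPS27 on chromosome 5 by 1.6 ± 0.056 in DMSO (adjusted p = 4.7e-09 and 2.0e-09), and MRPL13 on chromosome 8 rose by 0.94 ± 0.087 (adjusted p = 3.5e-06). NPM1 and RACK1, a protein bound to the small subunit, both on chromosome 5, fell by 1.21 and 0.69 (adjusted p = 4.8e-07 and 4.2e-06), and PABPC1, the poly(A)-binding protein, on chromosome 8, rose by 1.18 (adjusted p = 4.9e-09). Of the genes close to the rule, RPL36AL fell by 0.31 in DMSO (adjusted p = 0.0070), and FAU had -0.07 (adjusted p = 0.30).

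ATACseq measures how open the chromatin is. The table holds regions selected for a genotype difference with ATRA. Contrasts that use the ATRA libraries are therefore only described here, and the genotypes were compared in DMSO. The DMSO libraries are others, but they come from the same lines whose difference selected the regions. A difference in DMSO is thus favoured by the selection, and its counts and adjusted p-values are no independent test either. Among the regions of the table, 16 list 14 of the 81 members as their gene, and 15 of these were among the 6214 tested. In DMSO 14 of the 15 passed by limma, 8 higher and 6 lower in HK3-null, where 86.6% of all regions passed (42.7% higher and 43.9% lower). The share is near that of all regions.

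The 4 regions that overlap a member's gene moved in the direction of its mRNA. All of them lie on chromosome 15 or 8, where the median of the other tested genes shifted the same way. A change at the gene and one of its chromosome cannot be told apart here. At chr15:66504564-66505511, which covers the start of RPL4 shown above, the signal was 145 and 105 in Cas9 control and 58.4 and 59.2 in HK3-null with DMSO (-1.05 ± 0.306, adjusted p = 0.0022), beside -1.17 for the mRNA. The regions at RPL30, RPL7 and RPL8 that overlap the gene were higher by 1.22, 1.39 and 1.18 (adjusted p = 0.00032, 0.00011 and 0.00035). With ATRA, in the contrast that chose the regions, the region of RPL4 had a signal of 148 and 112 in Cas9 control and 30.6 and 54.6 in HK3-null.

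Of the 11 other tested regions, which lay 0.9 to 8.0 kb from the member, 7 had the sign of its mRNA and 4 the opposite sign. A region 8.0 kb from RPS27A (chr2:55223320-55223908) had a signal of 2.11 and 1.33 in Cas9 control and 51.5 and 54.4 in HK3-null with DMSO (4.32 ± 0.467, adjusted p = 6.6e-10), while the RPS27A mRNA had -0.08. A region 0.9 kb from RPL12 (chr9:127452258-127452624) was lower, with 80.6 and 127.5 against 27.6 and 34.5 (-1.68 ± 0.336, adjusted p = 3.7e-05), while the RPL12 mRNA was higher by 0.31. The region of RPS19, 6.1 kb away, was lower by 1.35 on the log2 scale (adjusted p = 0.0064) beside -0.04 for its mRNA, and that of RPL13, 7.7 kb away, higher by 1.86 (adjusted p = 0.00047) beside -0.03. Such regions name the member only because the table lists it.

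With ATRA 3 of the 15 regions passed in Cas9 control, all lower, where 18.2% of all regions passed (2.54% higher and 15.6% lower), and 1 passed in HK3-null, also lower, where 16.8% did (5.04% higher and 11.8% lower). Both comparisons reuse the ATRA libraries by which the regions were selected. Their counts and adjusted p-values are therefore a description and not an independent test. A region 7.7 kb from RPL23 was lower in both genotypes, at 137 and 125 in DMSO against 61.2 and 34.9 with ATRA in Cas9 control (-1.48 ± 0.338, adjusted p = 0.0016), and at 24.1 and 28.5 against 7.73 and 9.86 in HK3-null. The RPL23 mRNA had 0.08 ± 0.0756 and -0.02 ± 0.0756 (adjusted p = 0.43 and 0.84). The other 2 were the regions 4.9 kb from RPL32 and 1.0 kb from RPLP1, which fell by 1.99 and 1.13 in Cas9 control (adjusted p = 0.00034 and 0.012), while the mRNAs had 0.09 (adjusted p = 0.32) and 0.16 (adjusted p = 0.041).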

How the data were processed

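RNA was measured in 12 HL60 samples and open chromatin in 8. The authors deposited the RNAseq values as log2 of a scaled, whole-number count per gene, with a zero written as the log2 of 0.001. DESeq2, MACS2 and GRCh38 are named in the submitters' processing notes, which do not say how the counts were scaled, and the RNAseq aligner and counter are not stated in what was read here. ATACseq reads were mapped with bwa mem. The ATACseq values are a deposited signal, fragment density down-sampled by the authors. Raw depth is therefore unknown. Since these are no raw counts, limma 3.58.1 in R 4.3.3 (lmFit and eBayes with trend, all 4 groups sharing 1 estimate of spread) was fitted to log2 values of 13256 genes with a group mean log2 of at least 3, with Benjamini-Hochberg adjustment. ATACseq was fitted as log2(signal + 1) for the 6214 regions above the lowest 25% by mean signal. The scripts were tested on simulated data. By replicate number the RNAseq libraries paired in part. Deviations of the 18 same-numbered pairs of different groups correlated at 0.178 to 0.631 over 10667 genes, against -0.643 to 0.286 for other pairs. Over the 81 members these ranges were -0.373 to 0.756 and -0.781 to 0.642, and they overlapped widely. No label explains the pairing, and the block was an alternative. Named genes were all members on chromosomes 5, 6, 8, 13 and 15, the 5 largest rises and falls among passing members, paralogs, RPLP0, RPLP1, RPLP2, RPSA, RPL5, RPL11, RPS14, RPS19, RPS26 and RPS6, the largest 2 rises and 2 falls of each other list (a selection is printed), and HK3, RPL36AL and FAU. A few genes that the rule names are not reported here. Other genes named (RPS15, RPL35, RPL14, RPS2, EEF1A1, LARP1 under ATRA, and members beside an ATACseq region) were chosen after their values were seen. The members, chromosomes and lists were chosen with earlier results of these data known. NOG, which encodes noggin, stood in the list of assembly factors as first written, passed in no comparison, and was removed after the values were seen. Rows with no gene name held at most 0.00926% of a library and were left out.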

Additional observations from a re-analysis of the deposited data

How the results depend on the processing

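The number of members that passed moved by over 1.5 times under some alternatives. With a fold of 1.5 in addition it was 15 in DMSO and 14 in ATRA between genotypes, and 1 in Cas9 control and 2 in HK3-null for ATRA against DMSO, the same as with an unadjusted p and a fold of 1.5. With a fold of 2 it was 6, 5, 0 and 0. Quantile normalization gave 59 between genotypes in ATRA, 51 for ATRA in Cas9 control, 32 for ATRA in HK3-null and 25 for the interaction, and it reversed the median in DMSO to 0.034 and in HK3-null to -0.019. Scaling to the library total gave 50 in Cas9 control and 3 for the interaction. No filter gave 11 and 12 for ATRA in Cas9 control and HK3-null, only the libraries compared gave 12 in HK3-null, and the replicate block gave 29 and 30. Leaving out 1 library gave 30 to 37 in DMSO, 31 to 43 in ATRA, 8 to 17 for ATRA in Cas9 control, 10 to 43 in HK3-null and 0 to 1 for the interaction. The medians then ran from -0.11 to -0.05, -0.12 to -0.02, 0.06 to 0.14 and 0.04 to 0.15. The log2 ratio of shares kept its sign in every alternative run, at -0.07 to -0.03, -0.20 to -0.12, 0.15 to 0.18 and 0.015 to 0.096 when 1 library was left out. Of the 15 ATACseq regions 12 to 13 passed without 1 library and 14 with the replicate block, where same-numbered libraries did not pair (correlations -0.21 to 0.054). The cause of these shifts was not tested.

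Of 109 calls of single members, 50 kept direction and threshold in every alternative, and the replicate block lost none. Subtracting the chromosome median, which by construction removes what a chromosome shares, reversed 18. In DMSO these were RPL7 (-0.22), RPL8 (-0.21), RPL30 (-0.0029), RPL37 (0.099), RPS10 (-0.17), RPS12 (-0.057), RPS14 (0.27), RPS18 (-0.061) and RPS20 (-0.11), and in ATRA RPL7 (-0.22), RPL8 (-0.24), RPL37 (0.13), RPS10 (-0.11), RPS12 (-0.068), RPS14 (0.26), RPS18 (-0.22), RPS20 (-0.072) and RPL7L1 (-0.0018). Quantile normalization reversed the ATRA change of RPSA in HK3-null (-0.022). Raw depth is unknown, and changes near 0.1 lie close to the SE of most members.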
